A study of Mus musculus with 2 samples.

Results

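Inhibitory immune checkpoints are receptor and ligand pairs that damp the response of T cells, and the transcripts of 10 genes of this kind were followed through every immune cell class of a distant mouse tumor. The genes were the receptors Pdcd1 (PD-1), Ctla4 (CTLA-4), Havcr2 (TIM-3) and Lag3 (LAG-3), the ligands Cd274 (PD-L1), Pdcd1lg2 (PD-L2), Cd80, Cd86 and Lgals9 (galectin-9), and Vsir (VISTA), which acts as a receptor and as a ligand. They were taken by symbol, with no use of their values, and are 10 of the 32285 genes in the count matrices, where each was found once. MC38 colon carcinoma cells were grown under the skin of both flanks of male C57BL/6 mice aged 6 to 8 weeks, and microwave ablation (MWA), which destroys tissue by heat, was applied to the right tumor at a volume of about 300 mm3. CD45+ cells, the leukocytes, were sorted from the left tumor, which was not ablated, on day 8 after MWA and profiled by droplet-based single-cell RNA sequencing. The MWA library came from mice that had MWA with an isotype control antibody, and the MWA plus TIGIT library from mice that had MWA and, from 1 day after it, an antibody that blocks the inhibitory receptor TIGIT, given, per the labels, as 3 intraperitoneal injections with 3 days between them, while the methods of the study give another number of injections. Mice without the ablation were not analysed here, so all cells came from ablated animals, and how many mice went into each library is not given in the sources used here.

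PD-1 binds PD-L1 and PD-L2 and recruits phosphatases to the activated T cell receptor, whereas CTLA-4 competes with the costimulatory receptor CD28 for CD80 and CD86 on antigen-presenting cells and is a constant feature of regulatory T cells. LAG-3 binds MHC class II, TIM-3 binds galectin-9 among other ligands, and VISTA is best known from myeloid cells. On CD8+ T cells that meet antigen for a long time in a tumor, PD-1, TIM-3 and LAG-3 accumulate together and are used to describe exhaustion, while interferon-gamma induces PD-L1 on many cells.

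The MWA library held 10217 cell barcodes with 66152465 unique molecular identifiers (UMIs, 1 per captured transcript molecule) and the MWA plus TIGIT library 10190 barcodes with 78751205 UMIs. After filters and removal of called doublets, 9231 and 9127 cells remained, with medians of 5327 and 6288 UMIs per cell, so the second library was the deeper one. Of the kept cells, 29 barcodes occurred in both libraries. Cells were clustered without the 10 genes, and clusters were named by marker lists that hold none of them. CD8 T cells numbered 1946 and 2060 in the MWA and the MWA plus TIGIT library (this order of the libraries holds wherever a pair of values is given), regulatory T-like (Treg-like) cells 741 and 614, CD4 T-like cells 936 and 771, tumor-associated macrophage-like (TAM-like) cells 3883 and 4041, dendritic-like (DC-like) cells 153 and 120, and neutrophil-like cells 104 and 88. Markers of cells that lack CD45 summed to 11.7 and 14.0 CPM over all kept cells. Levels are given as UMIs summed over the cells of a class and divided by all UMIs of that class, times 1000000 (CPM), with an exact 95% Poisson interval, and shares of cells with an exact 95% binomial (Clopper-Pearson) interval. Each group had 1 library, so no test between the groups was possible, and every interval covers counting error only, not the spread between animals. The intervals of summed UMIs and of their ratios also leave out the spread between cells. Between the libraries the log2 ratio of CPM, MWA plus TIGIT over MWA, is given with an exact conditional binomial interval where a gene had at least 20 UMIs in a class.

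Pdcd1 (ENSMUSG00000026285; GRCm38 chr1:94038305-94052553, minus strand) was highest in exhausted-like CD8 T cells, a cluster of 320 and 215 cells, at 247 CPM (225 to 271) in the MWA library and 247 CPM (221 to 275) in the MWA plus TIGIT library. Its interval there lay clear of every other class in both libraries, and the log2 ratio was 0.00 (−0.21 to 0.21), so that per UMI the same level was counted in both. Next came Treg-like cells with 68.4 and 78.7 CPM, a log2 ratio of 0.20 (−0.15 to 0.55). Gamma-delta T-like cells had 44.7 and 40.3 CPM. In the MWA library they followed the Treg-like cells, and the intervals of the 2 classes met. In the MWA plus TIGIT library they stood below the cycling and effector-like CD8 T cells described below. Exhausted-like cells with a Pdcd1 UMI made up 65.3% (59.8 to 70.5) and 65.1% (58.3 to 71.5) (medians of 5286.5 and 5817 UMIs), against 0.592% and 0.247% in TAM-like cells, which served as background for T cell transcripts at medians of 8500 and 10479 UMIs. With every cell thinned to 1000 UMIs, which left out 5 and 1 shallower exhausted-like cells, the shares in exhausted-like cells were 20.3% and 22.4%. CD8 T cells of all kinds held 72.9% and 73.2% of all Pdcd1 UMIs.

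Pdcd1 differed between the libraries in other CD8 T cell clusters. In effector-like CD8 T cells, led by Gzma and Ccl5, Pdcd1 had 33 and 121 UMIs, or 17.3 CPM (11.9 to 24.3) in the MWA library and 42.5 CPM (35.3 to 50.8) in the MWA plus TIGIT library, a log2 ratio of 1.30 (0.73 to 1.90). In cycling CD8 T-like cells it was 28.7 and 47.1 CPM, a log2 ratio of 0.71 (0.37 to 1.06). Both intervals lay above 0, and the share of effector-like cells with a Pdcd1 UMI was 4.14% (2.67 to 6.09) and 12.4% (10.2 to 14.9), or 1.39% and 5.15% at 1000 UMIs per cell with 5 and 6 cells left out. The summed markers of exhausted CD8 T cells, which do not include the receptors, were 515 and 445 CPM in effector-like cells and 839 and 671 CPM in cycling cells. They were lower in the MWA plus TIGIT library in both, with 1 of the 9 at 0 in effector-like cells of the MWA library. In exhausted-like cells the same sum was higher in the MWA plus TIGIT library, at 3534 and 4519 CPM. The 7 effector markers, none at 0, were 17715 and 21862 CPM in effector-like and 3499 and 5811 CPM in cycling cells. The part of these shifts in the Pdcd1 values was not tested.

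**Figure D1:**
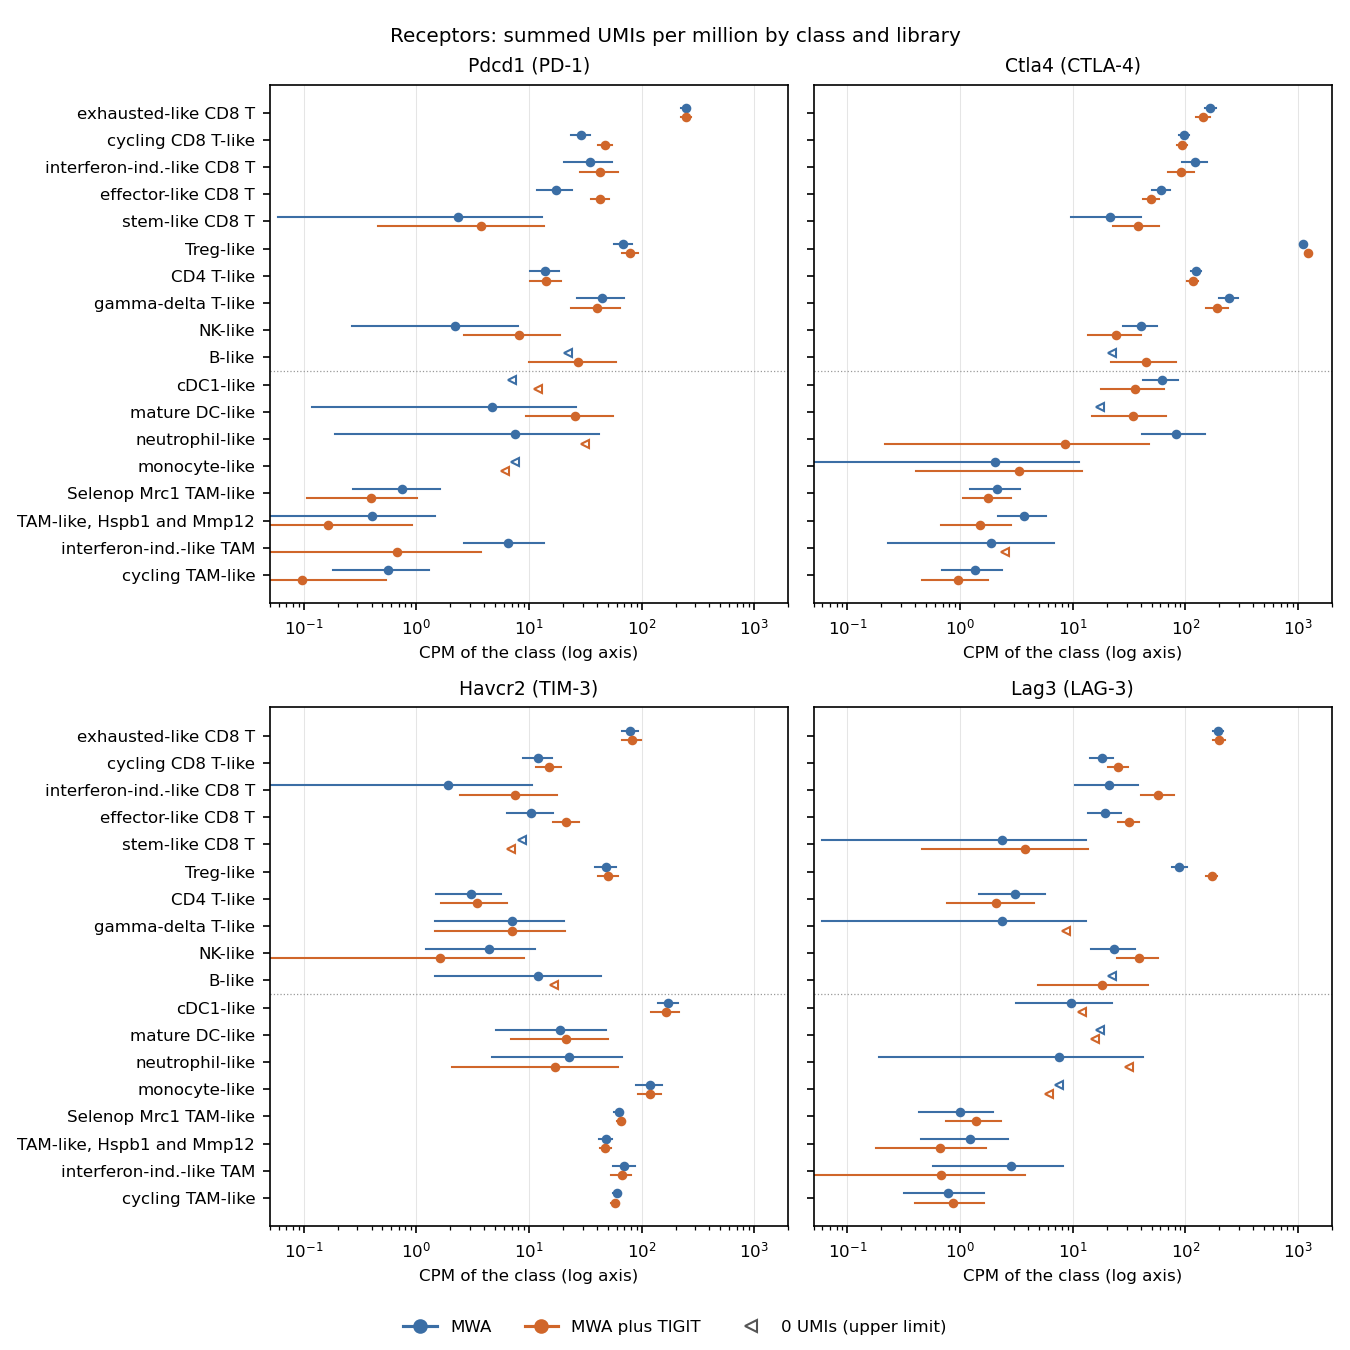
CPM (log axis) of Pdcd1, Ctla4, Havcr2 and Lag3 in the cell classes of the MWA and the MWA plus TIGIT library. Points are the levels, bars are exact 95% Poisson intervals, which go on beyond the left edge where they reach it, and open triangles mark classes with 0 UMIs at the upper limit. Pdcd1 is highest in exhausted-like CD8 T cells and Ctla4 in Treg-like cells in both libraries.

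Ctla4 (chr1:60887000-60915832, plus strand) was a Treg-like transcript before all else, at 1095 CPM (1048 to 1144) in the MWA library and 1232 CPM (1182 to 1283) in the MWA plus TIGIT library, and these cells, 3.28% and 2.79% of all UMIs, held 54.9% and 61.9% of its UMIs. The log2 ratio in Treg-like cells was 0.17 (0.08 to 0.26). The share of Treg-like cells with a Ctla4 UMI was 74.8% (71.5 to 77.9) and 82.2% (79.0 to 85.2), against 1.60% and 0.965% of TAM-like cells, although the median Treg-like cell had only 2212 and 2750.5 UMIs. Gamma-delta T-like cells, a cluster with Il17a and Il23r, came second with 242 and 192 CPM and a log2 ratio of −0.34 (−0.77 to 0.10). Over all CD8 T cells Ctla4 was lower in the MWA plus TIGIT library, at 96.4 and 81.8 CPM with a log2 ratio of −0.24 (−0.37 to −0.10), and within exhausted-like cells it was 166 and 143 CPM with a ratio of −0.22 (−0.48 to 0.05), an interval that includes 0. In contrast to Pdcd1, then, effector-like cells did not carry more Ctla4 in the second library, with 60.7 and 49.9 CPM and a log2 ratio of −0.28 (−0.65 to 0.08). Type 1 dendritic-like cells (cDC1-like, with Xcr1) also had Ctla4, at 32 and 11 UMIs or 61.3 and 36 CPM. At the ratio of Ctla4 to T cell marker transcripts in CD8, CD4 and Treg-like cells pooled, the T cell transcripts found in this cluster would correspond to 8.68% and 3.05% of these UMIs. Ctla4 was far higher in Treg-like cells than in this pool's CD8 T cells, and a ratio from Treg-like cells alone was not used. The T cell markers summed to 104 and 22.9 CPM in the cluster, with 1 of the 5 at 0 in the MWA plus TIGIT library. Their part in the difference was not tested.

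Havcr2 (chr11:46454935-46481255, plus strand) had another distribution from the other 3 receptors, since TAM-like cells held 70.6% and 74.0% of its UMIs. These cells held 61.0% and 65.8% of the UMIs of all genes. By level, cDC1-like cells were first with 173 CPM (139 to 212) in the MWA library and 164 CPM (121 to 216) in the MWA plus TIGIT library, followed by the unnamed myeloid cluster led by Plac8 and Chil3 with 138 and 119 CPM and monocyte-like cells with 117 and 118 CPM, and the intervals of these neighbours met. Exhausted-like CD8 T cells had 78.8 and 81.4 CPM, with a log2 ratio of 0.05 (−0.32 to 0.41), and TAM-like cells 59.6 and 59.8 CPM, with a ratio of 0.01 (−0.08 to 0.09). The narrow interval in TAM-like cells rests on 2058 and 2654 UMIs. With only cells of up to 5000 UMIs kept, the ratio moved to 0.995 in exhausted-like cells and from −0.08 to 2.11 in cDC1-like cells, and the cause was not tested. As with Pdcd1, effector-like CD8 T cells had more Havcr2 in the MWA plus TIGIT library, at 20 and 61 UMIs or 10.5 and 21.4 CPM, a log2 ratio of 1.03 (0.28 to 1.84), which was 0.33 with every cell thinned to 1000 UMIs. Macrophage transcripts in that cluster, at the TAM-like ratio, would correspond to 16.3% and 6.58% of these UMIs. In CD4 T-like cells, with 3.09 and 3.47 CPM, the corresponding shares were 49.6% and 39.9%.

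Lag3 (chr6:124904361-124911705, minus strand, 16139 bases from Cd4 with 0 annotated genes between them) was high in exhausted-like CD8 T cells, at 193 CPM (174 to 214) in the MWA library and 199 CPM (176 to 224) in the MWA plus TIGIT library, again with a log2 ratio near 0, 0.04 (−0.19 to 0.27). Treg-like cells differed between the libraries, with 164 and 323 UMIs, or 88.4 CPM (75.4 to 103) in the MWA library and 172 CPM (154 to 192) in the MWA plus TIGIT library, a log2 ratio of 0.96 (0.68 to 1.24). In the MWA library the intervals of these 2 classes were apart, while in the MWA plus TIGIT library they met. Treg-like cells with a Lag3 UMI amounted to 12.7% (10.4 to 15.3) and 26.5% (23.1 to 30.2), and at 1000 UMIs per cell to 5.98% (4.36 to 7.97) and 14.4% (11.7 to 17.5), with 22 and 10 cells left out. In TAM-like cells, at a higher depth, the unthinned shares were 0.953% and 1.24%. The 5 Treg markers, none at 0, summed in Treg-like cells to 4259.8 and 4807 CPM, and the 2 CD8 T cell markers to 35.6 and 28.7 CPM. The Treg marker sum and the sum of the interferon-induced markers, 319 and 405 CPM, were higher and the CD8 T cell marker sum lower in the library with more Lag3, and their part in the difference was not tested. The class pooled a main cluster with a small one of 17 and 25 cells. Over both libraries together, the interferon-induced markers summed to 197 CPM in the main cluster and 4677 CPM in the small one. Interferon-induced-like CD8 T cells had 11 and 38 UMIs of Lag3, or 21.2 and 57.3 CPM, a log2 ratio of 1.44 (0.44 to 2.56), at nearly equal interferon-induced marker sums of 3202 and 3206 CPM. Effector-like cells had 19.4 and 31.6 CPM, with a ratio of 0.71 (0.14 to 1.30), and NK-like cells 23.3 and 38.8 CPM, with a ratio of 0.73 (−0.17 to 1.65). The plasmacytoid dendritic-like cells, only 7 and 10 cells, had 9 and 11 UMIs, or 255 and 149 CPM. T cell marker RNA, at the ratio within T cells, would correspond to 0% and 3.36% of these UMIs, and the markers of NK cells, macrophages and effector CD8 T cells were also found in this small cluster, and the source of its Lag3 was not tested.

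Over CD8 T cells as a whole Pdcd1, Lag3 and Havcr2 stood nearly level between the libraries. Pdcd1 had a log2 ratio of 0.04 (−0.12 to 0.20), Lag3 one of 0.00 (−0.19 to 0.18) and Havcr2 one of 0.05 (−0.22 to 0.32). Ctla4 was lower in the MWA plus TIGIT library, with −0.24 (−0.37 to −0.10). With every cell thinned to the same number of UMIs, Pdcd1 was at 0.32, above its interval, and Lag3 at −0.19. The clusters that carried the receptors differed. Exhausted-like cells made up 16.4% and 10.4% of the CD8 T cells and held 72.8% and 49.0% of their Pdcd1 UMIs, 74.5% and 53.0% of Lag3 and 67.6% and 46.6% of Havcr2, lower in the MWA plus TIGIT library each time. Effector-like cells made up 29.8% and 39.9% and held 5.18% and 17.6% of the Pdcd1 UMIs, 7.60% and 17.6% of Lag3 and 9.13% and 25.6% of Havcr2. With the clusters weighted in both libraries by their shares in the MWA library, the log2 ratios over CD8 T cells were 0.27 for Pdcd1 and 0.24 for Lag3, above the values without this weighting. Ctla4 was spread more evenly, with 33.3% and 23.4% of its CD8 T cell UMIs in exhausted-like cells. The cluster sizes come from single libraries and were not tested.

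**Figure D2:**
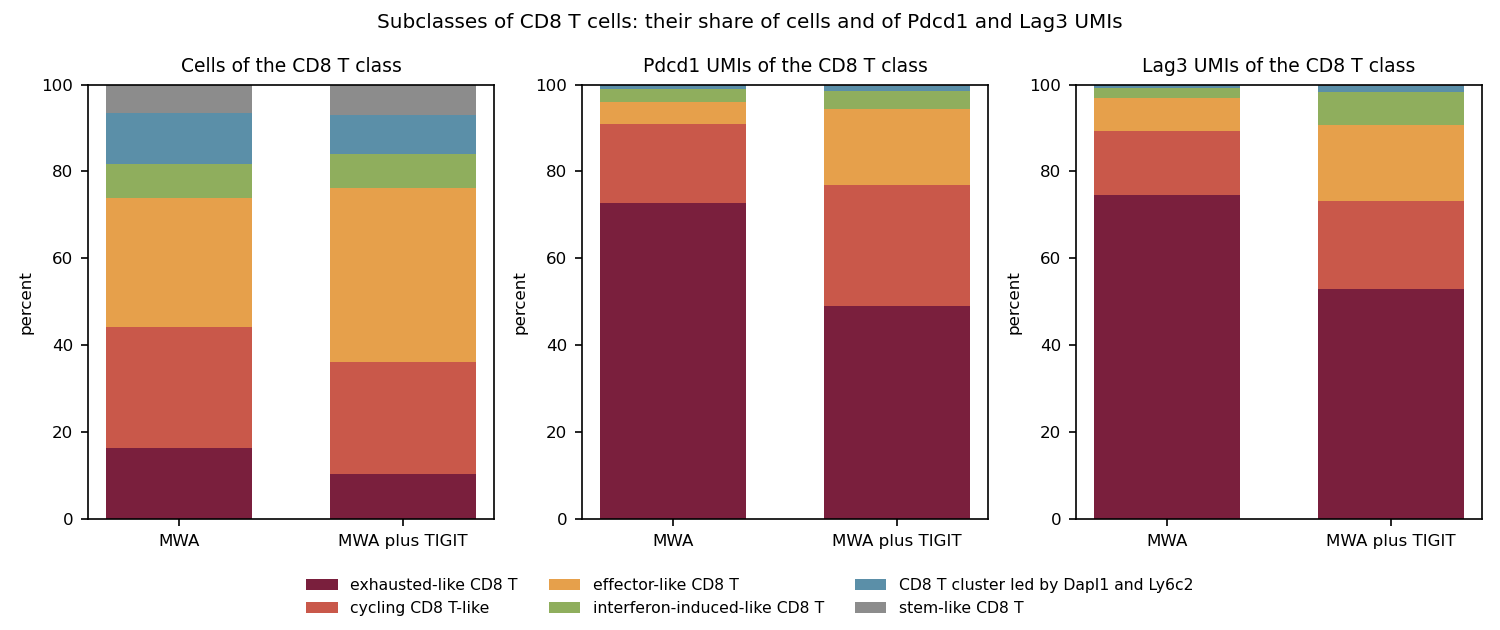
Stacked bars give the percent (linear axis from 0) of CD8 T cells, of their Pdcd1 UMIs and of their Lag3 UMIs in each of 6 CD8 T cell clusters, for the MWA and the MWA plus TIGIT library. The exhausted-like part of Pdcd1 (72.8% and 49.0%) and of Lag3 (74.5% and 53.0%) is smaller, and the effector-like part larger, in the MWA plus TIGIT library.

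The receptors were also followed within single cells, each thinned to 2000 UMIs, a depth that 176 and 127 CD8 T cells did not reach. Over all CD8 T cells of the MWA library a Ctla4 UMI was found in 37 of 154 cells with a Pdcd1 UMI (24.0%, 17.5 to 31.6) and in 209 of 1616 without one (12.9%, 11.3 to 14.7). In the MWA plus TIGIT library it was found in 36 of 196 cells with a Pdcd1 UMI (18.4%, 13.2 to 24.5) and in 174 of 1737 without one (10.0%, 8.65 to 11.5). With all CD8 T cells pooled, those with Pdcd1 thus had Ctla4 more often in both libraries. Within the exhausted-like cluster they did not. Ctla4 was found there in 25% of cells with Pdcd1 and 29.4% without in the MWA library. In the MWA plus TIGIT library it was 20% and 21.1%, and the intervals overlapped in both. In cycling CD8 T-like cells of the MWA plus TIGIT library the shares were 30.8% and 10.3%, with intervals apart. In those of the MWA library, and in effector-like cells of both, Ctla4 was more frequent with Pdcd1, but with overlapping intervals. Lag3 was found in the MWA library in 22.7% (16.4 to 30.2) of CD8 T cells with Pdcd1 and in 6.62% (5.46 to 7.95) of those without. In the MWA plus TIGIT library these shares were 12.2% (8.01 to 17.7) and 7.25% (6.08 to 8.58), with overlapping intervals. Within the exhausted-like cluster Lag3 was not found more often with Pdcd1. There Lag3 in the MWA library was found in 32 of 108 cells with a Pdcd1 UMI (29.6%, 21.2 to 39.2) and in 68 of 204 without one (33.3%, 26.9 to 40.3). In the MWA plus TIGIT library the corresponding values were 23.8% (14.9 to 34.6) and 35.3% (27.3 to 44.1). The intervals overlap in both libraries, so an association of Pdcd1 and Lag3 inside this cluster was not detectable at this depth. Over all CD8 T cells of the MWA library Lag3 was found in 13.4% (9.42 to 18.3) of cells with Ctla4 and 7.15% (5.91 to 8.56) without. In the MWA plus TIGIT library it was 18.6% (13.6 to 24.5) and 6.44% (5.33 to 7.71), with intervals apart in both. Among exhausted-like cells of the MWA plus TIGIT library it was found in 45.5% (30.4 to 61.2) with Ctla4 and 27.2% (20.7 to 34.6) without. In the MWA library the shares were 32.2% (22.6 to 43.1) and 32% (26.0 to 38.5), and the intervals overlapped in both. Over all CD8 T cells Ctla4 was found in 34.9% (23.3 to 48.0) of cells with Havcr2 and 13.1% (11.6 to 14.8) without in the MWA library. In the MWA plus TIGIT library it was 13.1% (6.72 to 22.2) and 10.8% (9.39 to 12.3), with overlapping intervals. Pdcd1 was found in 19.0% and 20.2% of CD8 T cells with Havcr2 and 8.32% and 9.68% without, with intervals apart in both. Lag3 was more frequent with Havcr2 in both, with overlapping intervals.

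The depth of 2000 UMIs left out 286 of 741 and 122 of 614 Treg-like, 8 of 320 and 2 of 215 exhausted-like and 101 of 580 and 54 of 822 effector-like cells, and the shares are of the cells kept. Of the 4 receptors, at least 2 were found in 28.2% (23.3 to 33.5) and 25.8% (20.1 to 32.2) of exhausted-like cells and in 20.4% (16.8 to 24.4) and 33.1% (29.0 to 37.5) of Treg-like cells. In Treg-like cells the interval of the MWA plus TIGIT library lay above that of the MWA library, in exhausted-like cells the intervals overlapped. Effector-like cells had 2 or more in 1.25% (0.461 to 2.71) and 2.60% (1.60 to 3.99), and TAM-like cells in 0.0787% (0.0162 to 0.230) and 0.0249% (0.000632 to 0.139). None of the 4 was found in 25.6% (20.9 to 30.9) and 27.7% (21.8 to 34.2) of exhausted-like and 19.3% (15.8 to 23.3) and 13.0% (10.2 to 16.3) of Treg-like cells.

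**Figure D3:**
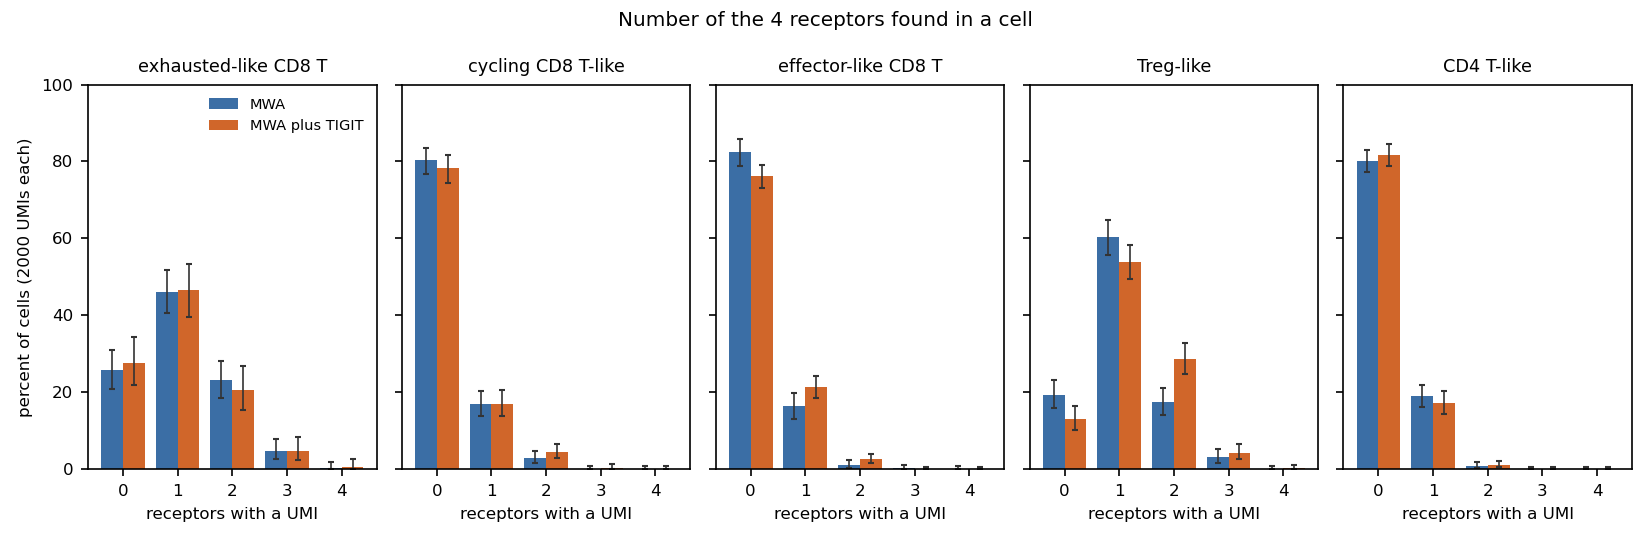
Percent of cells (linear axis from 0) in which 0, 1, 2, 3 or 4 of the receptors had a UMI, in 5 T cell classes of the MWA (blue) and the MWA plus TIGIT (orange) library, with every cell thinned to 2000 UMIs and exact 95% binomial intervals. Exhausted-like CD8 T cells and Treg-like cells have the most cells with several receptors.

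Among the ligands, Cd274 (chr19:29367455-29388095, plus strand) and Pdcd1lg2 (chr19:29410919-29471161, plus strand) lie 22823 bases apart with 0 annotated genes between them. A non-coding gene, A930007I19Rik, overlaps Pdcd1lg2 on the other strand. Despite this neighbourhood their distributions differed (r = 0.59 over 28 cell classes, on the log2 of CPM plus 1). Cd274 was highest in neutrophil-like cells, at 93 and 107 UMIs or 703 CPM (568 to 862) in the MWA library and 912 CPM (748 to 1103) in the MWA plus TIGIT library, clear of every other class, with a log2 ratio of 0.38 (−0.04 to 0.79). These are shallow cells, with medians of 957.5 and 1151 UMIs, and 36.5% (27.3 to 46.6) and 40.9% (30.5 to 51.9) of them had a Cd274 UMI. Neutrophil markers summed to 83417 and 144396 CPM there and T cell markers to 726 and 136 CPM, so the neutrophil-like cells of the MWA library held more RNA of T cells, whose part in the ratio was not tested. Mature DC-like cells, with Fscn1 and Ccr7, were second in Cd274 with 197 CPM (142 to 267) in the MWA library and 301 CPM (235 to 381) in the MWA plus TIGIT library, a log2 ratio of 0.61 (0.04 to 1.20). Interferon-induced-like TAM followed with 106 and 119 CPM and a ratio of 0.17 (−0.18 to 0.52).

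TAM-like cells held 53.3% and 66.6% of all Cd274 UMIs, beside 61.0% and 65.8% of the UMIs of all genes. The level of Cd274 in them was higher in the MWA plus TIGIT library. It was 28.6 CPM (26.8 to 30.4) in the MWA library and 37.8 CPM (36.0 to 39.7) in the MWA plus TIGIT library, a log2 ratio of 0.40 (0.29 to 0.52). The cluster led by Hspb1 and Mmp12, among whose leading genes are heat-shock genes, had 325 and 625 UMIs or 66.2 CPM (59.2 to 73.9) in the MWA library and 104 CPM (95.6 to 112) in the MWA plus TIGIT library, a log2 ratio of 0.64 (0.45 to 0.84). There 28.9% (25.6 to 32.3) and 40.5% (36.9 to 44.1) of the cells had a Cd274 UMI, or 6.50% and 10.7% at 1000 UMIs per cell with 9 and 4 cells left out. Cycling TAM-like cells had a ratio of 0.57 (0.25 to 0.90) and Selenop Mrc1 TAM-like cells one of 0.36 (0.06 to 0.66). In the Hspb1 and Mmp12 cluster the hypoxia markers summed to 1675 and 1885 CPM and the interferon-induced markers to 468 and 578 CPM, both higher in the MWA plus TIGIT library, and their part in the Cd274 values was not tested. CD8 T cells carried Cd274 as well, and here the level was not higher in the second library. It was 28.2 and 24.6 CPM over all CD8 T cells, with a ratio of −0.20 (−0.45 to 0.05), 39.3 and 28.1 CPM in effector-like cells, with −0.48 (−0.95 to −0.01), and 100 and 73.9 CPM in interferon-induced-like cells, with −0.44 (−1.03 to 0.16). Macrophage RNA at the TAM-like ratio would correspond to 2.23% and 3.06% of the CD8 T cell UMIs of Cd274.

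**Figure D4:**
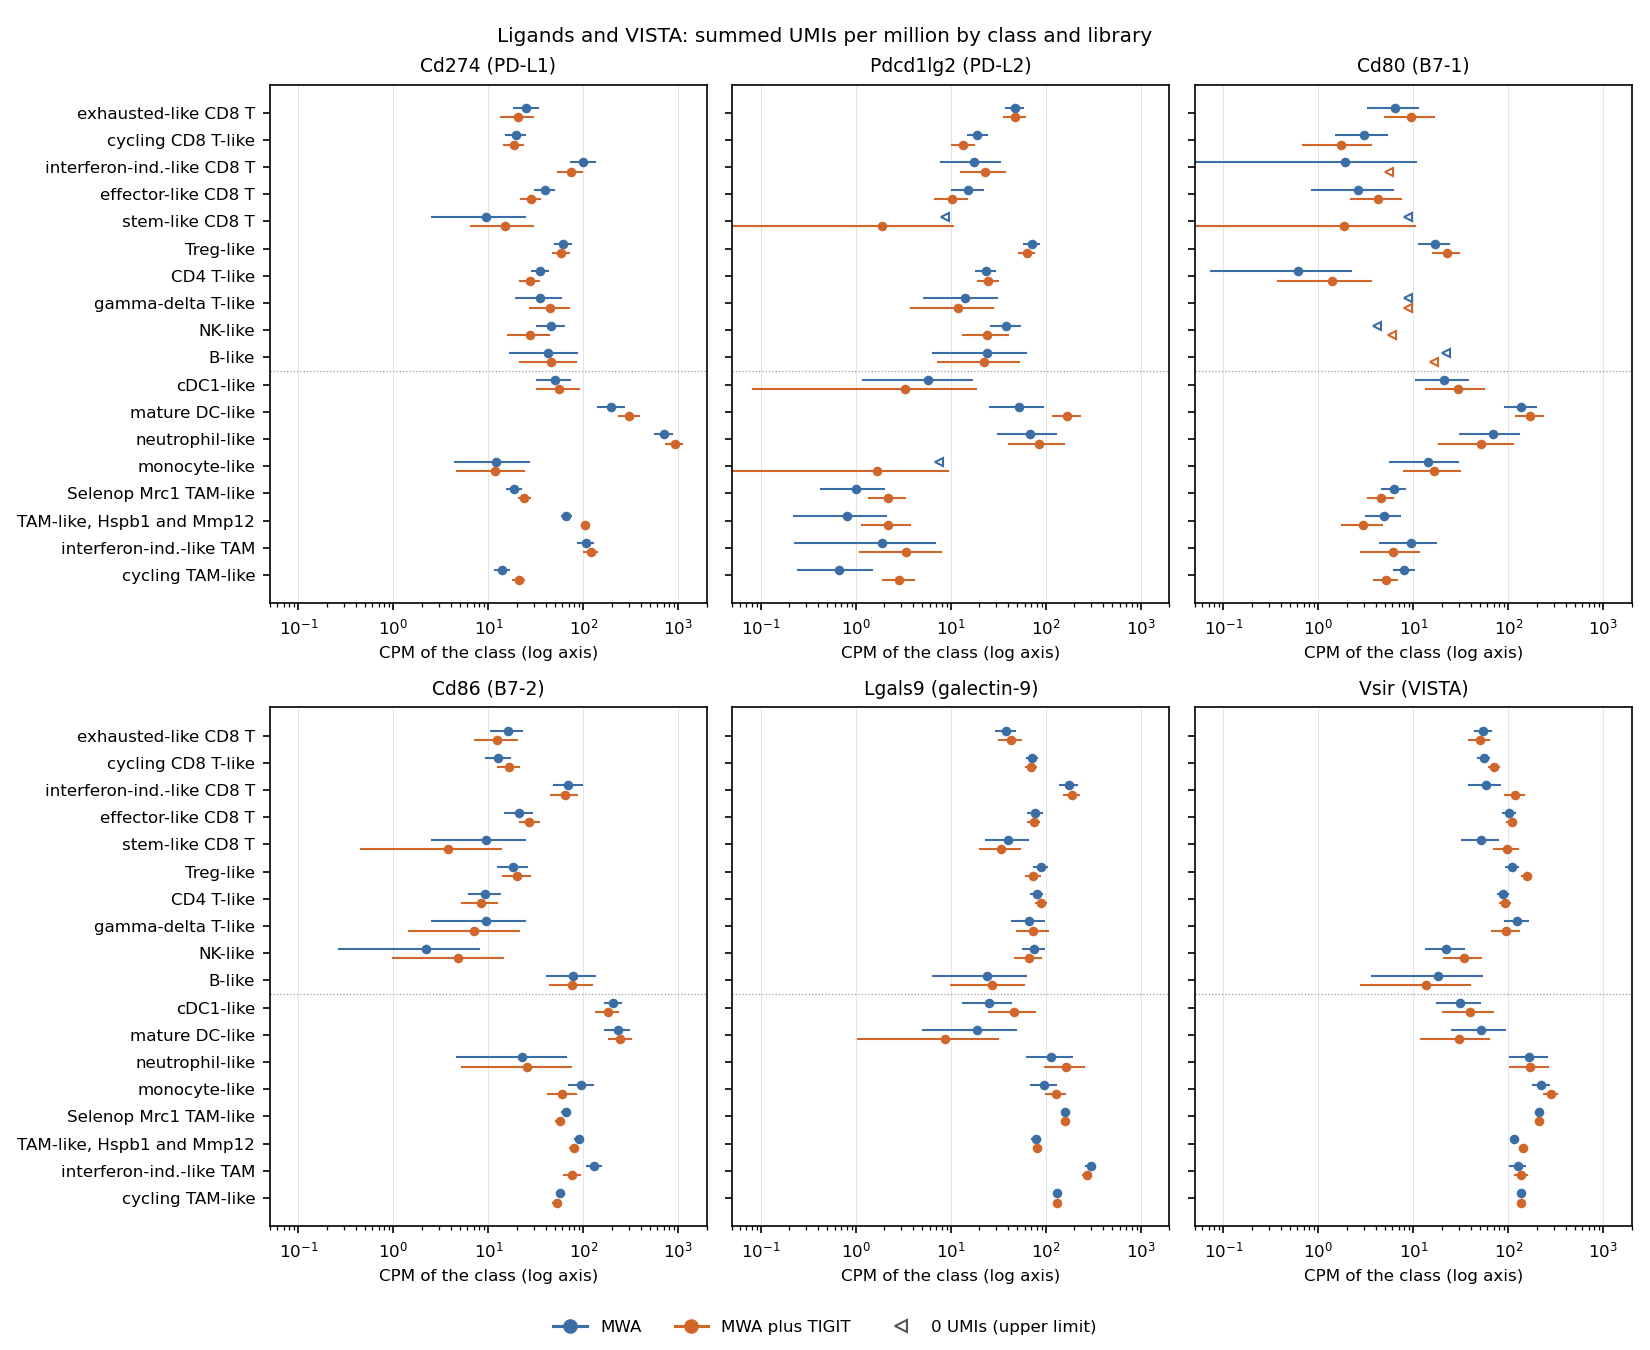
CPM (log axis) of Cd274, Pdcd1lg2, Cd80, Cd86, Lgals9 and Vsir in the cell classes of the MWA and the MWA plus TIGIT library, drawn as for the receptors. Cd274 is highest in neutrophil-like cells, Cd80 and Cd86 in mature DC-like cells, and Lgals9 in interferon-induced-like TAM.

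By share of UMIs, not by level, Pdcd1lg2 was largely a lymphoid transcript in these libraries. CD8 T cells held 36.7% and 28.6% of its UMIs, beside 17.1% and 15.2% of the UMIs of all genes. Treg-like cells held 23.3% and 19.7%, at 71.1 CPM (59.5 to 84.4) in the MWA library and 63.3 CPM (52.4 to 75.7) in the MWA plus TIGIT library, a log2 ratio of −0.17 (−0.54 to 0.20). By level, mature DC-like cells stood above Treg-like cells in the MWA plus TIGIT library. Neutrophil-like cells had only 9 and 10 Pdcd1lg2 UMIs, but also only 0.233% and 0.174% of the UMIs of all genes. Exhausted-like CD8 T cells had 46.9 and 46.9 CPM. Mature DC-like cells differed between the libraries, with 11 and 39 UMIs in 36 and 33 cells, or 51.7 CPM (25.8 to 92.4) in the MWA library and 168 CPM (119 to 229) in the MWA plus TIGIT library, a log2 ratio of 1.70 (0.71 to 2.81). The share of them with a Pdcd1lg2 UMI was 22.2% (10.1 to 39.2) and 54.5% (36.4 to 71.9). In the same cells the mature dendritic cell markers summed to 7933 and 10339.8 CPM, the macrophage markers to 1184 and 740.1 CPM and the T cell markers to 254 and 103 CPM, so that the cluster of the MWA library held more transcripts of other cells, whose part in the ratio was not tested. Of the 6 macrophage markers 1 was at 0 in both libraries, and none of the 8 mature dendritic cell or 5 T cell markers was. In TAM-like cells Pdcd1lg2 was low in both libraries, with 51 and 115 UMIs or 1.48 and 2.59 CPM, a log2 ratio of 0.81 (0.32 to 1.32). Cycling TAM-like cells had 6 and 30 UMIs, a ratio of 2.10 (0.81 to 3.65). Over CD8 T cells it was 21.4 and 16.9 CPM, with a ratio of −0.34 (−0.64 to −0.04).

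Cd80 (chr16:38455561-38496335, plus strand) and Cd86 (chr16:36603869-36666081, minus strand), the ligands shared by CD28 and CTLA-4, were both highest in mature DC-like cells, although for Cd80 the interval of these cells met that of the next class, neutrophil-like cells, in the MWA library. Cd80 was 136 CPM (91.2 to 196) in the MWA library and 168 CPM (119 to 229) in the MWA plus TIGIT library there, a log2 ratio of 0.30 (−0.43 to 1.05), and Cd86 230.2 CPM (170.3 to 304) in the MWA library and 245 CPM (186 to 318) in the MWA plus TIGIT library, a ratio of 0.09 (−0.48 to 0.67). For Cd86, cDC1-like cells came next with 207 and 179.9 CPM, and their intervals met those of mature DC-like cells. TAM-like cells held 56.7% and 51.0% of the Cd80 and 74.2% and 75.7% of the Cd86 UMIs, beside 61.0% and 65.8% of the UMIs of all genes. They had less of both ligands per UMI in the MWA plus TIGIT library. Cd80 was 7.33 and 5.34 CPM, with a log2 ratio of −0.46 (−0.72 to −0.19), and Cd86 69.6 and 61.2 CPM, with −0.18 (−0.26 to −0.11). With only cells of up to 5000 UMIs kept, the ratio of Cd80 was −1.26. In interferon-induced-like TAM Cd86 had 138 and 112 UMIs or 129 and 75.7 CPM and a ratio of −0.77 (−1.14 to −0.40), at interferon-induced marker sums of 5526 and 6076 CPM. Monocyte-like cells had 95.2 and 59.9 CPM, with a ratio of −0.67 (−1.34 to −0.01). The unnamed DC cluster led by Ifitm1 and Ms4a4c stood the other way, with 37 and 77 UMIs or 116 and 179 CPM and a ratio of 0.63 (0.05 to 1.24). Of the Cd86 UMIs in CD8 T cells, at 17.4 and 21.3 CPM, macrophage RNA at the TAM-like ratio would correspond to 8.80% and 5.71%. In NK-like cells it would correspond to 66.1% and 26.1%, but of only 2 and 3 UMIs, too few to compare the libraries.

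Lgals9 (chr11:78962974-78984946, minus strand) followed the interferon-induced clusters of both lineages. It was highest in interferon-induced-like TAM, at 297 CPM (265 to 331) in the MWA library and 273 CPM (247 to 301) in the MWA plus TIGIT library, clear of the next class in both libraries, and next in interferon-induced-like CD8 T cells, at 175 and 187 CPM, against 132 and 133 CPM in all TAM-like cells and 70.5 and 72.9 CPM in all CD8 T cells. Between the libraries Lgals9 differed little, with log2 ratios of −0.12 (−0.34 to 0.10) in interferon-induced-like TAM, 0.10 (−0.31 to 0.50) in interferon-induced-like CD8 T cells and 0.01 (−0.05 to 0.06) in TAM-like cells. The last of these rests on 4555 and 5882 UMIs. The gene start was searched for a pair of GAAA runs with any 2 bases between them, which the interferon-stimulated response element holds and which reads as TTTC runs on the other strand, both strands being searched. RefSeq promoters (GRCm38.p6) of 250 bases before to 50 bases after the start were at hand for 8 of the 10 genes, not for Lag3 and Cd86. The pattern was found in 3.44% of all 32851 promoters. Of the 8 genes only Lgals9 held a match, a pair of TTTC runs at 2 places, while Cd274, which also stood high in the interferon-induced clusters, held none in this window. Both are shown on the strand of the gene, in lower case, with the matches in capitals (chr11:78984875-78985174, minus strand, for Lgals9 and chr19:29367188-29367487, plus strand, for Cd274).
Lgals9: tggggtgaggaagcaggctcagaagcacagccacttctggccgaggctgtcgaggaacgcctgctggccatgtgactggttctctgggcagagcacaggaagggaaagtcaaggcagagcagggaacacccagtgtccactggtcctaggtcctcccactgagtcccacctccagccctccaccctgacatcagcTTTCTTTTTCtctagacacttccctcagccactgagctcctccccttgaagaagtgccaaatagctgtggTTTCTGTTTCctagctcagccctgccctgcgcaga
Cd274: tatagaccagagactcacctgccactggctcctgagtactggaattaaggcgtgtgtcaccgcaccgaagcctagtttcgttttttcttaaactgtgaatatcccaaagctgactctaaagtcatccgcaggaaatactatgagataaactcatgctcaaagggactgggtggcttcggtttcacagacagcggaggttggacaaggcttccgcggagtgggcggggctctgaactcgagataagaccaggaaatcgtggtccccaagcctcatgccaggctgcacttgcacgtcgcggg
The 2 matches of Lgals9 begin 55 bases before and 15 bases after the start of the gene. A match is a run of letters, not a shown site, and the absence of one says nothing about binding elsewhere.

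Vsir (chr10:60346851-60372684, plus strand, inside Cdh23 on the other strand) was highest in monocyte-like cells, at 223 CPM (183 to 269) in the MWA library and 279.6 CPM (239 to 325) in the MWA plus TIGIT library, a log2 ratio of 0.33 (−0.03 to 0.69), followed by Selenop Mrc1 TAM-like cells at 208 and 210.0 CPM, whose interval met that of monocyte-like cells in the MWA library. TAM-like cells as a whole had 165 and 177 CPM on 5690 and 7865 UMIs, a ratio of 0.11 (0.06 to 0.15), so that a small difference was larger than its counting error, but with only cells of up to 5000 UMIs kept the ratio turned to −0.30. A Vsir UMI was found in 68.9% and 75.6% of TAM-like cells, or in 14.6% and 16.1% at 1000 UMIs per cell with 10 and 4 cells left out. In CD8 T cells and Treg-like cells Vsir was also higher in the MWA plus TIGIT library, with intervals above 0. It was 64.1 and 83.3 CPM in CD8 T cells, a ratio of 0.38 (0.23 to 0.53), 109.9 and 156 CPM in Treg-like cells, a ratio of 0.50 (0.24 to 0.77), and 57.7 and 118 CPM in interferon-induced-like CD8 T cells, a ratio of 1.03 (0.40 to 1.69). Stem-like CD8 T cells, with Tcf7 and Lef1, had 51.9 and 95.8 CPM, a ratio of 0.89 (0.14 to 1.68). The intervals included 0 in CD4 T-like cells, with 88.0 and 92.0 CPM and a ratio of 0.07 (−0.18 to 0.31), in NK-like cells, with a ratio of 0.61 (−0.34 to 1.57), and in gamma-delta T-like cells, where the ratio was −0.37. At the TAM-like ratio, macrophage RNA would correspond to 5.66% and 4.23% of the UMIs in CD8 T cells and 5.29% and 3.04% in Treg-like cells, where the macrophage markers summed to 977 and 864 CPM.

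The 10 genes were then set against all genes of each class. A difference past 1.5-fold in either direction, a size and not a test, was found in CD8 T cells for 0 of 10 with at least 20 UMIs, where 8.84% of all such genes passed that fold, and in CD4 T-like cells for 0 of 8, against 11.5%. In Treg-like cells it was 1 of 10, Lag3, against 13.5%, and in DC-like cells 2 of 9, Pdcd1lg2 higher and Ctla4 lower, against 21%. These shares lie near or below those of all genes. Within the DC-like class, the cDC1-like cells, which had Ctla4, held 47.9% and 29.4% of the UMIs, so the make-up of the class differed between the libraries. Past 1.5-fold in TAM-like cells were 3 of 10, Pdcd1lg2 higher and Pdcd1 and Ctla4 lower, against 5.76%, and in NK-like cells 5 of 6, 2 higher and 3 lower, against 19.1%. All 5 intervals in NK-like cells include 0. The count in TAM-like cells was 1 with called doublets kept and 0 with cells thinned to 1000 UMIs. All genes were not recounted under these settings, and the cause was not tested. The median log2 ratio of the 10 in TAM-like cells was 0.01, beside 0.04 over all genes, in CD8 T cells 0.03 beside 0.13, and in Treg-like cells 0.16 beside 0.07. The 2 receptors that were lower in TAM-like cells are T cell genes and were sparse there, Pdcd1 with 25 and 11 UMIs and a ratio of −1.55 (−2.72 to −0.47), Ctla4 with 68 and 49 UMIs and −0.83 (−1.39 to −0.28). All 5 T cell markers were found in the TAM-like cells, and their sum was also lower in the MWA plus TIGIT library, at 24.4 and 15.3 CPM. At the ratios within T cells, these T cell transcripts would correspond to 41.6% and 74.3% of the Pdcd1 and 63.7% and 66.3% of the Ctla4 UMIs.

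**Figure D5:**
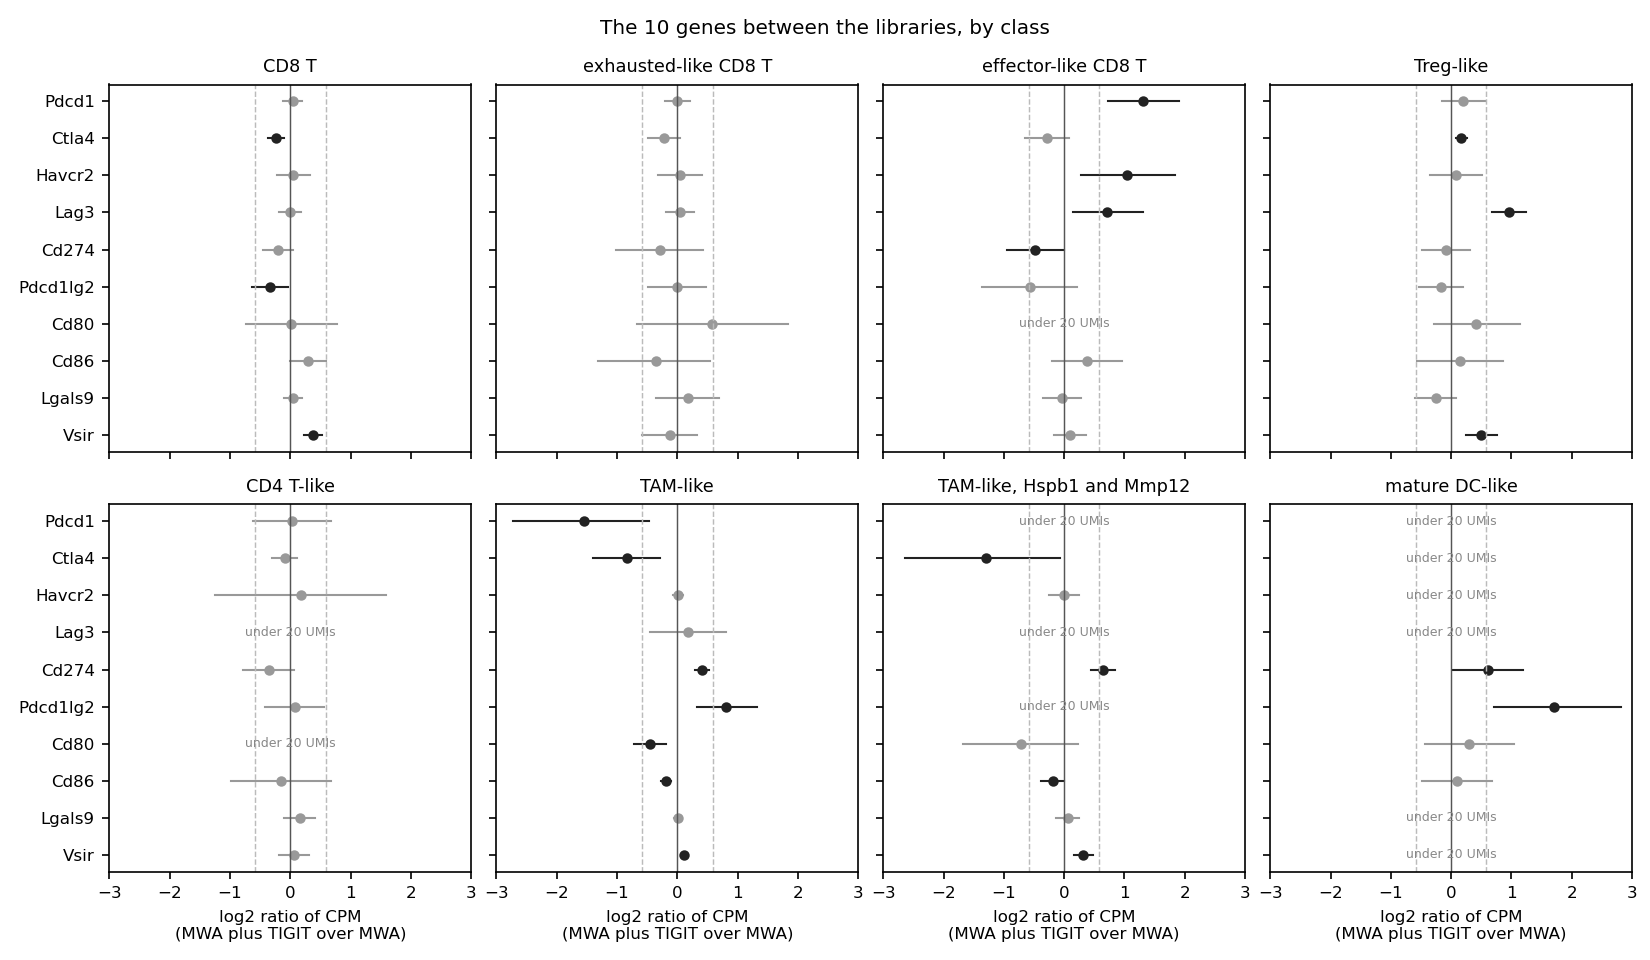
Log2 ratio of CPM, MWA plus TIGIT over MWA, of each of the 10 genes in 8 cell classes, where it had at least 20 UMIs, with exact 95% conditional binomial intervals, black where the interval excludes 0 and grey where it includes 0. Dashed lines mark 1.5-fold. Lag3 in Treg-like cells, Pdcd1 in effector-like CD8 T cells and Pdcd1lg2 in mature DC-like cells lie to the right of the upper line.

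The surroundings of the 10 genes were followed in 36 further genes, namely other ligands and partners, MHC class II, other receptors of T cells, signalling partners, proteins that hold the checkpoints at the membrane or shed them, and the interferon-gamma signal to PD-L1. In CD8 T cells 30 of them had at least 20 UMIs, of which 2 were past 1.5-fold higher and 0 lower, beside the 8.84% of all genes given above. These were Lgals3, a galectin that binds LAG-3, with a log2 ratio of 0.60 (0.53 to 0.67), and Rgmb, a partner of PD-L2, with 0.61 (−0.62 to 1.91). In Treg-like cells none of 25 was past that fold, beside 13.5% of all genes. In TAM-like cells 2 of 30 were lower and 0 higher, beside 5.76% of all genes, namely the T cell receptors of costimulation and inhibition Icos, with −1.14 (−1.82 to −0.49), and Btla, with −1.36 (−2.91 to 0.04), in the cells whose T cell markers were also lower. In DC-like cells the phosphatase gene Ptpn11, with 0.72 (−0.12 to 1.58), and the sheddase gene Adam17, with 0.70 (−0.01 to 1.42), were higher, and Lrba, which protects CTLA-4 from degradation, was lower, with −0.85 (−1.47 to −0.26), of 23 measured and beside 21% of all genes. CD4 T-like cells had Cmtm4 higher, with 0.65 (−0.17 to 1.49), and Btla lower, with −0.89 (−1.66 to −0.16), and NK-like cells Cd74, with 0.62 (0.22 to 1.01), and Zap70, with 0.59 (0.02 to 1.17), higher, 2 of 26 and 2 of 25 measured, beside 11.5% and 19.1% of all genes. The counts in these classes lie near or below the shares of all genes.

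The genes most like each of the 10 were sought by Pearson's r of log2(CPM + 1) over the 28 cell classes, on the mean of the libraries. The classes share libraries and depth, so r is a description. Pdcd1 was most like A430093F15Rik (0.92), Cxcr6 (0.89), Gstp3 (0.88), Ctla4 most like Icos (0.95), Sntb1 (0.93), Mllt3 (0.93), and Lag3 most like Ier5l (0.82), Pacsin1 (0.75), N4bp3 (0.74). Cxcr6 is a chemokine receptor of tissue T cells and Icos a costimulatory receptor, so both T cell receptors had T cell genes beside them. Havcr2 and Cd80 had the adhesion gene Alcam first, at 0.92 and 0.83. Pdcd1lg2 was nearest to Traf1 (0.85), Dennd4a (0.82), Tnfrsf9 (0.82), the first of which is an adaptor of TNF receptors and the last one of these receptors. Lgals9 was nearest to Oas1a (0.85), Rabggta (0.84), Cotl1 (0.82), of which Oas1a is induced by interferon, Cd86 to Vhl (0.86), Gm6377 (0.85), Cd40 (0.84), Cd274 to Kpna4 (0.78), Ric1 (0.78), Arih2 (0.76), and Vsir to Cept1 (0.84), Dusp6 (0.83), Atg7 (0.81). Among the 10 themselves, Pdcd1 and Ctla4 were most alike with r = 0.83, followed by Havcr2 with Cd80 at 0.71 and with Cd86 at 0.70. PD-1 and one of its ligands, Pdcd1lg2, had r = 0.69, whereas Pdcd1 and Havcr2 had −0.26, and Ctla4 and its ligand gene Cd86 −0.46.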

How the data were processed

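The deposited matrices hold raw UMI counts per gene and cell barcode, which the authors made from 10x Genomics 3′ V3.1 reads with Cell Ranger on mm10 (version 6.1.1 in the submitters' processing notes, 4.0.0 in the file headers), 1 matrix per library. No columns were left unmapped.

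Barcodes with fewer than 200 genes or over 10% mitochondrial UMIs were left out (179 and 276 for the latter). Doublets were called by similarity to simulated doublets at an expected 0.8% per 1000 barcodes (806 and 786 called) and left out. Cells were integrated and clustered with Seurat 5.3.0 (R 4.3.3) on 40 principal components, without the 10 genes, and clusters were named "-like" from marker lists by their 10 leading genes. Broad T cell and TAM-like classes needed at least 2 markers among these, subclasses and other classes 3. TAM-like clusters led by state genes needed macrophage markers at 0.5 of their highest level on average, CD8 T clusters 300 CPM of Cd8b1 and cycling clusters 400 CPM of cycle genes. The B-like cluster was named from its B cell marker score in the first clustering of all cells, without a minimum of leading markers, and 3 B cell markers were among its leading genes. Clusters that did not meet these rules stayed unnamed. The 10 genes and the lists were chosen with earlier results of these data known.

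UMI counts were summed per class and library with numpy 2.4.6 and pandas 2.3.3, and intervals were computed with scipy 1.17.1. With 1 library per group no test was run. Macrophage RNA in other classes was estimated from C1q genes and Apoe and T cell RNA from T cell markers, at the ratio of each gene to them in TAM-like or T cells. TMM factors came from edgeR 4.0.16. Alternatives were TMM scaling, an upper limit of 5000 UMIs per cell, a mitochondrial limit of 5%, doublets kept, other clusterings, thinning to 1000 UMIs, fixed subclass shares, no minimum of UMIs, and shared barcodes left out. Named were the 10 genes, the 3 genes most like each among those with at least 200 UMIs, and genes of the pathway lists past 1.5-fold with at least 20 UMIs. Gene positions are those of GENCODE M21 on GRCm38 and promoters those of RefSeq on GRCm38.p6. A further pattern searched in the promoters and a further gene group are not reported here. The scripts were tested on simulated data.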

Additional observations from a re-analysis of the deposited data

Results flagged for a closer look

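In 5 of the 10 genes a pair of cell classes stood in opposite directions between the libraries, each with an interval that excludes 0. Each pair was picked as the highest and the lowest such ratio among all broad classes and clusters. The share of all genes with such a pair was not counted, so the number is not a result about the 10 genes. With 1 library per group the difference between the classes was not tested in any of the pairs.

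Pdcd1 was higher in the MWA plus TIGIT library in effector-like CD8 T cells, with a log2 ratio of 1.30 (0.73 to 1.90), and lower in TAM-like cells, with −1.55 (−2.72 to −0.47), a difference of 2.85. Ctla4 had 0.17 (0.08 to 0.26) in Treg-like cells and −1.30 (−2.64 to −0.07) in the TAM-like cluster led by Hspb1 and Mmp12, a difference of 1.47. Both receptors were sparse in the macrophages, where the T cell markers summed to 24.4 and 15.3 CPM over all TAM-like cells and to 28.5 and 16.6 CPM in the Hspb1 and Mmp12 cluster, and the part of these transcripts in the ratios was not tested.

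Cd274 had 0.64 (0.45 to 0.84) in the TAM-like cluster led by Hspb1 and Mmp12 and −0.51 (−1.0 to −0.03) in the CD4 T-like cluster led by Ifitm1 and Ifitm2, a difference of 1.15. Pdcd1lg2 had 2.10 (0.81 to 3.65) in cycling TAM-like cells, on 6 and 30 UMIs, and −0.34 (−0.64 to −0.04) in CD8 T cells, a difference of 2.44. Cd86 had 0.63 (0.05 to 1.24) in the unnamed DC cluster led by Ifitm1 and Ms4a4c and −0.77 (−1.14 to −0.40) in interferon-induced-like TAM, a difference of 1.40.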

How the results depend on the processing

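Of 435 log2 ratios recomputed under other settings, 413 lay within the counting interval of the value reported. Leaving out cells over 5000 UMIs gave −0.35 for Havcr2, 0.60 for Cd274, −1.26 for Cd80, −0.025 for Cd86 and −0.30 for Vsir in TAM-like cells, the last in the opposite direction. Thinning every cell to 1000 UMIs gave 0.54 for Cd274 in TAM-like cells, 0.32 for Pdcd1 and −0.19 for Lag3 in CD8 T cells, 0.071 for Ctla4 in Treg-like cells, and −0.48 for Lag3 in cycling CD8 T-like cells, the last reversed from 0.49. With the subclass shares of the MWA library held in both, Pdcd1 and Lag3 in CD8 T cells were 0.27 and 0.24. The cause was not tested. TMM scaling moved all ratios by −0.13 in CD8 T, −0.11 in CD4 T-like and −0.04 in TAM-like cells, kept the direction of 52 of 62, and left all of them within their intervals.

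The number of the 10 genes past 1.5-fold became 2 in Treg-like, 1 in CD4 T-like, 0 in NK-like and 4 in DC-like cells without cells over 5000 UMIs, and 1 in CD4 T-like, 1 in NK-like and 0 in TAM-like cells with thinning. It was 1 in TAM-like cells with called doublets kept, 1 in DC-like cells with subclass shares held, and 1 in CD4 T-like and 8 in NK-like cells with no minimum of UMIs. The share of all genes past that fold was not recounted under these settings, and the number of the 10 genes measured can differ between them. The counts are therefore not results about the 10 genes. Leaving out the barcodes that occur in both libraries, an alternative chosen after seeing the data, left all 10 ratios within their intervals. No replicate could be left out, and no paired analysis was possible, because each group had 1 library.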

Other observations

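Clusters without a cell type name also held some of the 10 genes. In the unnamed myeloid cluster led by Ctsk and Acp5, Lag3 had 3 and 17 UMIs in 27 and 30 cells, or 6.39 CPM (1.32 to 18.7) in the MWA library and 27.5 CPM (16.0 to 44.1) in the MWA plus TIGIT library. The clusters with few UMIs, 310 and 368 cells, had 30.8 and 68.3 CPM of Ctla4, and the unnamed T cluster led by the heat-shock genes Hspa1a and Hspa1b had 124 and 159 CPM. No cell type was assigned to these clusters.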
